A study of Pyronema omphalodes CBS 100304 with 6 samples.

Results

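The RNA silencing genes of *Pyronema confluens* described here are 11 of 13369 predicted gene models. They were taken from the deposited table by words in the predicted gene product (RNA-dependent RNA polymerase, argonaute, dicer, endoribonuclease dcr, QDE or piwi, ignoring case). No measured value entered this match, but the list was chosen with earlier results of these data known. The matches were 4 models similar to RNA-dependent RNA polymerases, 2 similar to dicers, 4 similar to argonautes and 1 similar to an argonaute-binding protein. No product matched QDE or piwi. All labels rest on similarity as listed in the table, and no sequence of these genes was examined.

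RNA-seq was done on vegetative mycelium of the strain CBS 100304, a filamentous ascomycete that the labels list as *P. omphalodes*, grown in shaken culture at 25° and harvested under red light. The study compared the subjective evening (24 hr after transfer from constant light to constant darkness, DD24) with the subjective morning (36 hr in darkness, DD36) to search for clock-controlled genes. All cultures had first been in constant light, and the shifts to darkness were timed so that cultures had been grown for about the same time at harvest. Each group held 3 libraries (a, b and c) of independent biological replicates, and no mutant or light-grown library was part of the comparison.

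RNA silencing turns double-stranded RNA into a signal against matching transcripts. RNA-dependent RNA polymerases copy single-stranded RNA into double strands, dicers cut these into small RNAs, and argonautes carry the small RNAs to their targets. In *Neurospora crassa* this pathway is known as quelling of repeated transgenes, and a related one silences unpaired DNA in meiosis. In the fission yeast *Schizosaccharomyces pombe*, the RNA-dependent RNA polymerase Rdp1, Dicer, the argonaute Ago1 and the argonaute-binding protein Arb1 act in forming heterochromatin at repeats.

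Each of the 11 models lay on a scaffold of its own in the genome version v01_2 used by the authors, 7 of them on the minus strand. The polymerase-like *PCON_08583* spanned 1550 to 6507 of scaffold 390 on the minus strand, in 4 exons, with a coding sequence of 4176 bases for 1392 residues and annotated 5' and 3' UTRs of 398 and 197 bases. *PCON_09614*, with the same annotated match (Rdp1 of fission yeast), spanned 108091 to 113610 of scaffold 453 on the plus strand, in 3 exons, and encoded 1645 residues. The other polymerase-like models were *PCON_07520* (similar to a plant RNA-dependent RNA polymerase 2, scaffold 331, 12084 to 16165, minus strand, 1202 residues) and *PCON_13329* (scaffold 845, 19602 to 23585, minus strand, 1258 residues), the second of these similar to RNA-dependent RNA polymerase 1 of *Arabidopsis*.

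The dicer-like models were *PCON_07058*, similar to Dicer-like protein 1 (scaffold 300, 45614 to 50583, plus strand, 1576 residues), and *PCON_12321*, similar to Dicer-like protein 2 (scaffold 678, 26904 to 34171, plus strand, 2228 residues). Among the argonaute-like models, *PCON_03180* (scaffold 1375, 328091 to 331447, minus strand, 901 residues) had Ago1 of fission yeast as its match. *PCON_08335* (scaffold 379, 5119 to 8597, plus strand, 1001 residues), *PCON_13881* (scaffold 900, 43860 to 47261, minus strand, 1055 residues) and *PCON_14146* (scaffold 961, 227976 to 231394, minus strand, 708 residues) were matched to plant argonautes 1, 10 and 12. *PCON_13216* (scaffold 833, 1349 to 3504, minus strand, 460 residues) had Arb1 of fission yeast as its match and was the shortest product.

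**Figure D1:**
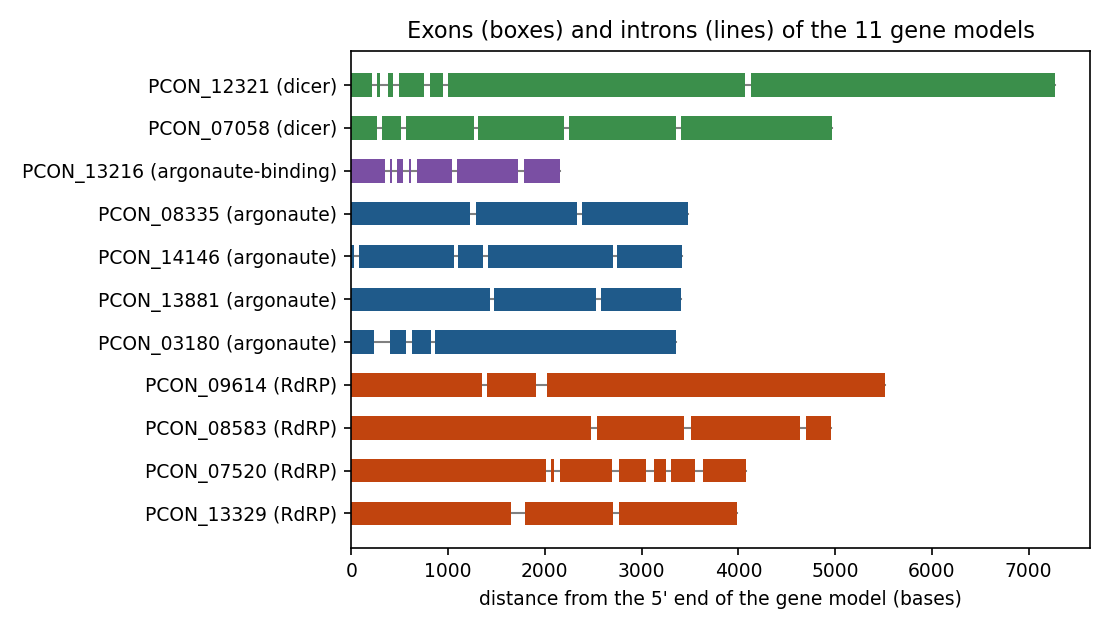
Gene models of the 11 RNA silencing genes drawn to scale, with exons as boxes, introns as lines and the distance from the 5' end of the model in bases on the x axis. The models have 3 to 7 exons, and the dicer-like *PCON_12321* is the longest at 7268 bases.

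The models held 3 to 7 exons, and their 41 introns measured 45 to 159 bases. For 6 of the 11 no 5' UTR was annotated, and for *PCON_07058* and *PCON_13329* no UTR at all. The scaffold of *PCON_08583* carried only 1 other model, *PCON_08582*, similar to the transport protein bos1, which lay 122 bases away on the plus strand. This neighbor had 7, 29 and 19 counts in libraries a, b and c of DD24 and 24, 14 and 19 in those of DD36, far below *PCON_08583*. Of the 19 direct neighbors of the 11 models only *PCON_13328* overlapped one, *PCON_13329*, by 93 bases on the opposite strand. It had 0 to 4 counts per library. The use of strand in counting is not given in the sources used here, so that reads of the shared part cannot be assigned, as is also so for reads from either strand within a model.

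All 11 models passed the filter on low counts, which kept 5466 of the 13369 models. Counts summed to 806459 to 1132608 per library. These sums are a small part of the reads that the study lists as mapped, for a reason not given in the sources used here, so that each share below is a share of the deposited counts and not of mapped reads. CPM are counts scaled to a common library size after TMM normalization, which uses a factor that offsets the effect of a few very abundant genes, which was 0.728 for DD24 replicate a and 1.02 to 1.13 for the others. Each member was counted at least 8 times in every library.

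*PCON_08583* stood apart from the rest of the family in all libraries. Its counts were 460091, 385376 and 282547 in libraries a, b and c of DD24 and 336458, 325071 and 304320 in those of DD36. The other 10 members together had 987, 1651 and 925 counts in the DD24 libraries and 1335, 1806 and 1245 in the DD36 libraries. No library brought any other member above 798 counts.

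**Figure D2:**
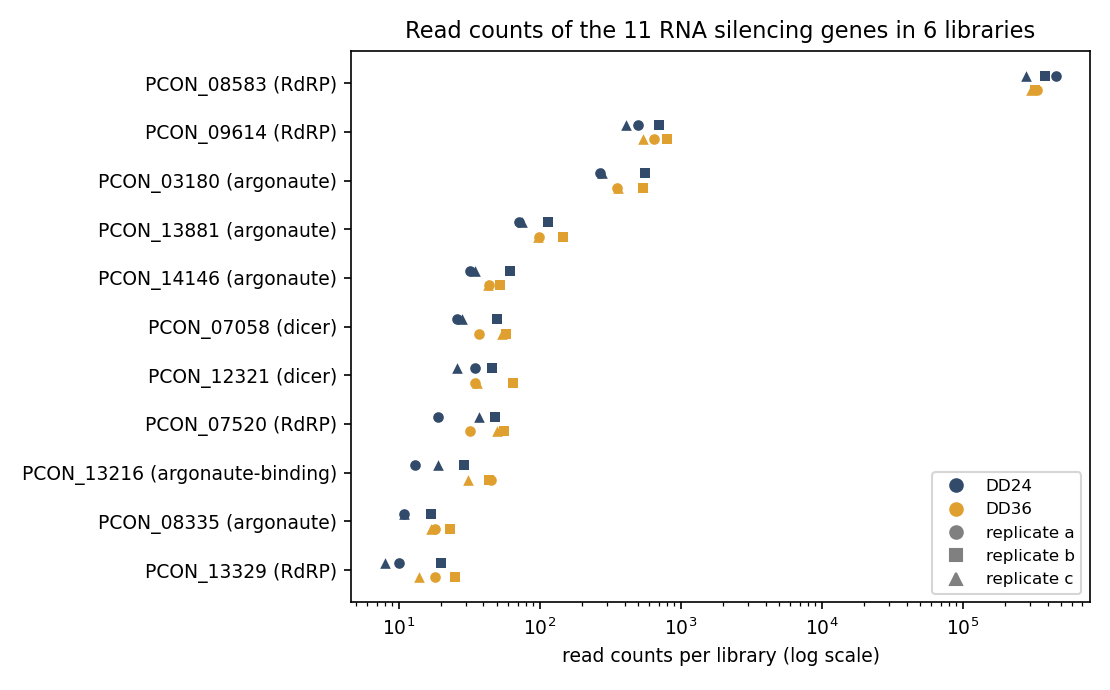
Read counts of each RNA silencing gene (rows) in the 6 libraries on a log axis, with color for the time point and symbol for the replicate letter. *PCON_08583* lies between 282547 and 460091 counts, and all other members lie between 8 and 798.

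Per kb of mRNA, where levels of different genes can be compared, *PCON_08583* was first of all 13369 models at 82074 ± 35356 CPM per kb (SD, n = 6 libraries). This level was 25.5 times that of the next model outside the phage-like ones described below, *PCON_04930* for elongation factor 1-alpha at 3216 CPM per kb, and 687 times that of *PCON_09614*, which has the same annotated match. Reads shared between those models could not be examined, because the treatment of reads with several matches is not given in the sources used here. Which part of *PCON_08583* the reads covered is likewise unknown from counts per gene.

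Next in the family were the argonaute-like *PCON_03180* at 132 ± 21.2 CPM per kb and the polymerase-like *PCON_09614* at 119 ± 23.2 CPM per kb (SD, n = 6 libraries for both), ranks 502 and 548 of the 13369 models. Their ranges over the libraries overlapped (106 to 158 and 93.1 to 147), with *PCON_03180* above in 4 of 6 libraries, so that their order is not settled. *PCON_13881* followed at 32.0 ± 4.25 CPM per kb (SD, n = 6), below *PCON_09614* in all 6 libraries without overlap. With *PCON_08583* set aside, 1 polymerase-like and 1 argonaute-like gene were thus several times above the others of their class.

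By their ranges over the libraries, the remaining 7 members formed a series without clear steps. *PCON_13216* stood at 17.1 ± 6.51 CPM per kb, *PCON_14146* at 14.5 ± 1.78, *PCON_07520* at 11.2 ± 1.81, *PCON_07058* at 9.18 ± 1.23, *PCON_12321* at 6.17 ± 1.51, *PCON_08335* at 5.01 ± 0.851 and *PCON_13329* at 4.32 ± 1.20 (SD, n = 6 libraries for each). The ranges of each neighboring pair in this order overlapped, as did those of *PCON_13881* and *PCON_13216*. Within libraries, *PCON_13881* was above *PCON_13216* in all 6, with a mean 1.87 times as high. The lowest member, *PCON_13329*, was at rank 6396 of the 13369 models. Of the dicers, *PCON_07058* was above *PCON_12321* in all 6 libraries, though the ranges of levels per kb overlapped, since the lowest value of *PCON_07058* (7.18) lay below the highest of *PCON_12321*. The order of all 11 was the same when levels were taken per kb of coding sequence or of the whole gene model.

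Within the classes, the leading genes took near-constant parts of the counts. *PCON_03180* held 70.0%, 74.4% and 69.4% of the argonaute-like counts in libraries a, b and c of DD24 and 68.9%, 70.9% and 69.3% in DD36. *PCON_09614* held 94.5%, 91.2% and 90.1% of the polymerase-like counts other than *PCON_08583* in DD24 and 92.9%, 90.8% and 89.5% in DD36. These shares do not depend on scaling, and the ranges at both times overlapped (exact two-sided permutation test, p = 0.5 for the first and p = 0.6 for the second, n = 3 per group, where 0.1 is the smallest p possible). Both shares were lower in DD36 in 3 of 3 pairs of the same letter (exact sign-flip test, p = 0.25, the smallest possible).

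The share of all counts in *PCON_08583* was 52.2%, 34.0% and 35.0% in libraries a, b and c of DD24, and 39.3%, 30.7% and 30.9% in those of DD36. Replicate a was the highest of its group at both times. DD24 averaged 40.4% ± 10.2 and DD36 averaged 33.6% ± 4.91 (SD, n = 3 for each), with ranges that overlapped. The difference of -6.79 percentage points was smaller in size than the SD of DD24 and larger than that of DD36. Without pairing it gave p = 0.5 (exact two-sided permutation test, smallest p possible 0.1). With libraries of the same letter as pairs, the share was lower in DD36 in 3 of 3 pairs (exact sign-flip test, p = 0.25, the smallest that 3 pairs can give). Without DD24 replicate a the difference was -0.89 percentage points. Clopper-Pearson intervals at 95% for a single library were narrow (52.1% to 52.3% for DD24 replicate a) and cover counting error only, so that depth did not limit this comparison. In RNA from whole mycelium, fewer cells that express a gene and less RNA per cell cannot be told apart.

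**Figure D3:**
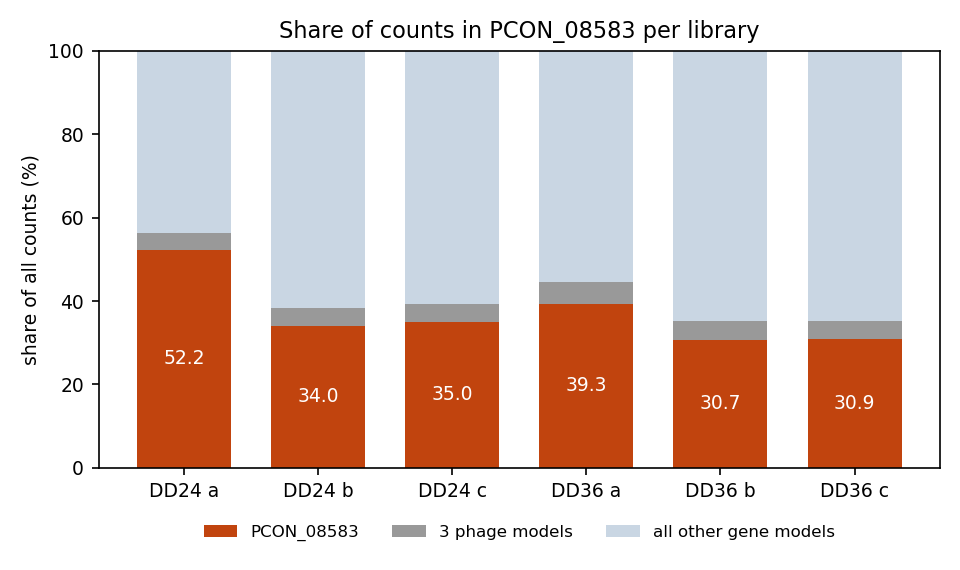
Share of all counts (in percent, bars from 0 to 100) held by *PCON_08583*, by the 3 phage models and by all other gene models in each of the 6 libraries. *PCON_08583* holds 52.2% in DD24 replicate a, 39.3% in DD36 replicate a and 30.7% to 35.0% in the 4 other libraries.

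A share falls when other genes rise, so *PCON_08583* was also set against narrower references within each library, chosen after its values were seen. These references can themselves differ between the time points. Per count of the other 10 silencing genes it had 466, 233 and 305 counts in libraries a, b and c of DD24 and 252, 180.0 and 244 in DD36. The ratio was lower in DD36 for each letter, and the ranges overlapped (difference of -0.53 on the log2 scale, exact two-sided permutation test, p = 0.3, n = 3 per group). Against *PCON_09614* alone the ratios were 918, 547 and 687 in DD24 and 517, 407 and 558 in DD36 (-0.52 on the log2 scale, exact two-sided permutation test, p = 0.2, n = 3 per group).

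The table also holds 3 models similar to proteins of a bacteriophage whose DNA is a common control of Illumina runs. They took 4.14% to 4.28% of the counts in DD24 and 4.29% to 5.13% in DD36, but after TMM scaling their log2 fold changes were -0.12 to -0.10, so that their direction depends on scaling. Relative to them *PCON_08583* had ratios of 12.6, 8.06 and 8.18 in libraries a, b and c of DD24 and 7.67, 6.78 and 7.20 in DD36. Here the groups did not overlap (-0.38 on the log2 scale, exact two-sided permutation test, p = 0.1, the smallest possible with n = 3 per group). The phage share of all counts was higher in DD36 without overlap (p = 0.1 by the same exact test), and its part in this ratio was not tested. Of 13 shares and ratios compared by this test, all had an adjusted p of 0.52 to 0.6 (exact permutation test with Benjamini-Hochberg adjustment).

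After TMM scaling *PCON_08583* stood at 724740, 336860 and 342490 CPM in libraries a, b and c of DD24 and at 389640, 276320 and 279400 CPM in DD36. CPM can exceed the share of counts because the scaling offsets the part this gene takes. The DD24 value of replicate a was 2.13 times the mean of b and c, and the DD36 value of replicate a was 1.40 times that of b and c. The difference within letters a, b and c was -0.90, -0.29 and -0.29 on the log2 scale.

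Of the other polymerase-like genes none was lower in DD36 in each letter. *PCON_09614* stood at 789, 616 and 498 CPM in libraries a, b and c of DD24 and at 754, 678 and 500.4 in DD36. The values of a letter were close at both times while letters differed, with c lowest. *PCON_07520* stood at 29.9, 42.0 and 44.9 CPM in DD24 and 37.1, 47.6 and 45.9 in DD36, with a lowest at both times. *PCON_13329* had 10, 20 and 8 counts in DD24 and 18, 25 and 14 in DD36, or 15.8, 17.5 and 9.70 CPM against 20.8, 21.3 and 12.9. In this gene each DD36 library was above the DD24 library of its letter, and the groups overlapped.

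The most abundant argonaute-like gene, *PCON_03180*, had the same order of letters at both times. It stood at 422, 490 and 333 CPM in libraries a, b and c of DD24 and at 412, 458 and 328 in DD36, each slightly lower than its counterpart. *PCON_13881* stood at 113, 99.6 and 90.9 CPM in DD24 and at 115, 124 and 90.0 in DD36. *PCON_14146* stood at 50.4, 54.2 and 42.4 CPM in DD24 and at 51.0, 44.2 and 39.5 in DD36. The least abundant argonaute-like gene, *PCON_08335*, had 11, 17 and 11 counts in DD24 and 18, 23 and 17 in DD36, which gave 17.3, 14.9 and 13.3 CPM against 20.8, 19.6 and 15.6. In each of these genes the DD24 and DD36 ranges overlapped.

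The dicer-like genes had 26 to 65 counts per library, where counting error alone gives 14.5% to 17.7% of the mean. A difference in pattern between them is thus not settled. *PCON_07058* stood at 41.0, 43.7 and 33.9 CPM in libraries a, b and c of DD24 and at 42.8, 49.3 and 49.6 in DD36, higher in DD36 for each letter. *PCON_12321* stood at 55.1, 40.2 and 31.5 CPM in DD24 and at 40.5, 55.3 and 33.1 in DD36, lower in DD36 for letter a and higher for b and c. Argonaute-like counts per dicer-like count were 6.28, 7.84 and 7.33 in DD24 and 7.18, 6.18 and 5.72 in DD36, which overlap (exact two-sided permutation test, p = 0.2, n = 3 per group).

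*PCON_13216*, similar to the argonaute-binding protein Arb1, was the only member whose groups did not overlap. Its counts were 13, 29 and 19 in libraries a, b and c of DD24 and 45, 44 and 31 in DD36, or 20.5, 25.3 and 23.0 CPM against 52.1, 37.4 and 28.5. In DD36 library a was highest and c nearest to DD24. The spread in DD24 was 10.6% of the mean, below the 23.4% that counting error alone gives at these counts. In DD36 it was 30.4% against 16.0%. The part that the close DD24 values have in the gap between the groups was not tested. Within letters a, b and c the difference was 1.35, 0.56 and 0.31 on the log2 scale. Groups without overlap and DD36 higher were found for 1 of 11 members and for 6.02% of all genes tested, and with DD36 lower for 0 members and 5.87% of all genes.

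**Figure D4:**
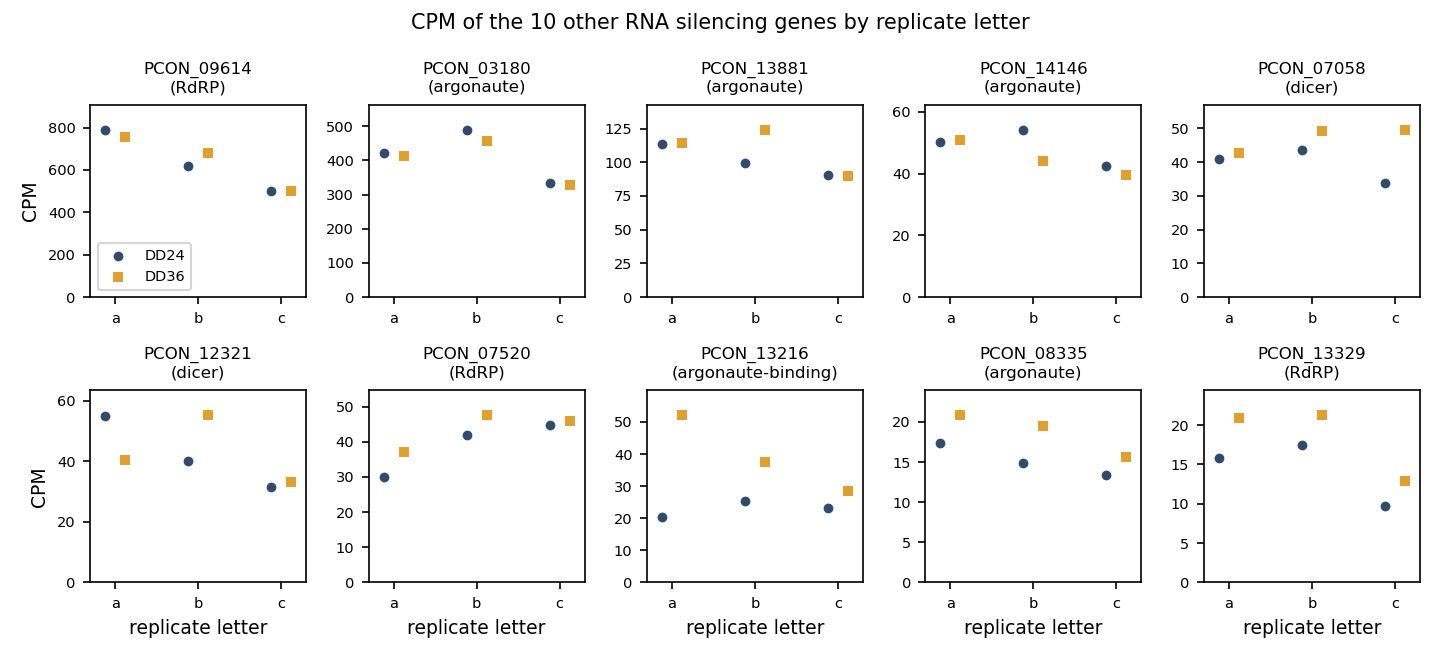
CPM of the 10 silencing genes other than *PCON_08583* (y axes from 0, 1 panel per gene) by replicate letter, with DD24 as circles and DD36 as squares. For *PCON_03180* and *PCON_09614* both time points of a letter nearly coincide and letter c is lowest, and only in *PCON_13216* do all DD36 values (28.5 to 52.1) exceed all DD24 values (20.5 to 25.3).

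Levels within the family also differed by replicate letter. Letter c had the lowest CPM of its group at both times for 7 of 11 members (*PCON_03180*, *PCON_08335*, *PCON_09614*, *PCON_12321*, *PCON_13329*, *PCON_13881* and *PCON_14146*), where this was so for 14.3% of all genes tested. This pattern was chosen after its values were seen. For *PCON_09614* the spread of CPM was 23.1% of the mean in DD24 and 20.2% in DD36, against 4.42% and 3.93% from counting error alone. For *PCON_03180* it was 18.9% and 16.6%, against 5.52% and 4.99%. In *PCON_08335* (13.3% and 14.6%, against 28.3% and 22.9%) and *PCON_07058* (12.7% and 8.06%, against 17.7% and 14.5%) the spread did not exceed counting error. The same was so for *PCON_14146* (12.3% and 12.9%, against 15.9% and 14.7%). *PCON_13329* was near counting error (28.6% and 25.9%, against 30.3% and 23.6%). Depth limits what can be seen in these genes.

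Without *PCON_08583* and the phage models in the total, the other 10 members made up 0.257%, 0.236% and 0.189% of the counts in libraries a, b and c of DD24 and 0.281%, 0.264% and 0.195% in DD36. Each letter was slightly higher in DD36, and the difference between letters a and c was larger than that between the time points in any letter. The ranges overlapped (exact two-sided permutation test, p = 0.5, n = 3 per group). No source used here says how cultures that share a letter were related.

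In the fit across all genes, 0 of 11 members had an adjusted p under 0.05 (edgeR's quasi-likelihood test with Benjamini-Hochberg adjustment), as was so for 0% of the 5466 genes tested. At an unadjusted p under 0.05 it was 1 member, *PCON_13216*, against 6.99% of all genes. DESeq2, which gave an adjusted p for 3 members, called 0 of these, and limma-voom called 0 of 11. These p-values set the difference between time points against the spread between the 3 libraries of a time point, estimated with information from all genes. The log2 fold change of *PCON_13216* was 0.74 (standard error 0.27, 95% interval 0.15 to 1.32, adjusted p = 0.624 from edgeR). For *PCON_08583* it was -0.57 (standard error 0.35, 95% interval -1.32 to 0.17, adjusted p = 0.784 from edgeR), and -0.11 without DD24 replicate a.

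The other 9 members had log2 fold changes between -0.14 (*PCON_14146*) and 0.33 (*PCON_13329*), with adjusted p from 0.872 to 0.993 (edgeR). The 95% intervals were narrowest for the argonaute-like *PCON_13881* (0.12, interval -0.26 to 0.50) and *PCON_03180* (-0.06, interval -0.45 to 0.34) and for *PCON_09614* (0.02, interval -0.42 to 0.46). Those of the least abundant members, *PCON_13329* (-0.41 to 1.08) and *PCON_08335* (0.30, interval -0.35 to 0.96), were the widest of the 9. For *PCON_07058* the value was 0.26 (interval -0.19 to 0.70), for *PCON_07520* 0.15 (-0.33 to 0.63) and for *PCON_12321* 0.05 (-0.50 to 0.61). The interval of *PCON_14146* (-0.58 to 0.30) was about as wide as that of *PCON_09614*, so that width did not follow abundance alone.

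**Figure D5:**
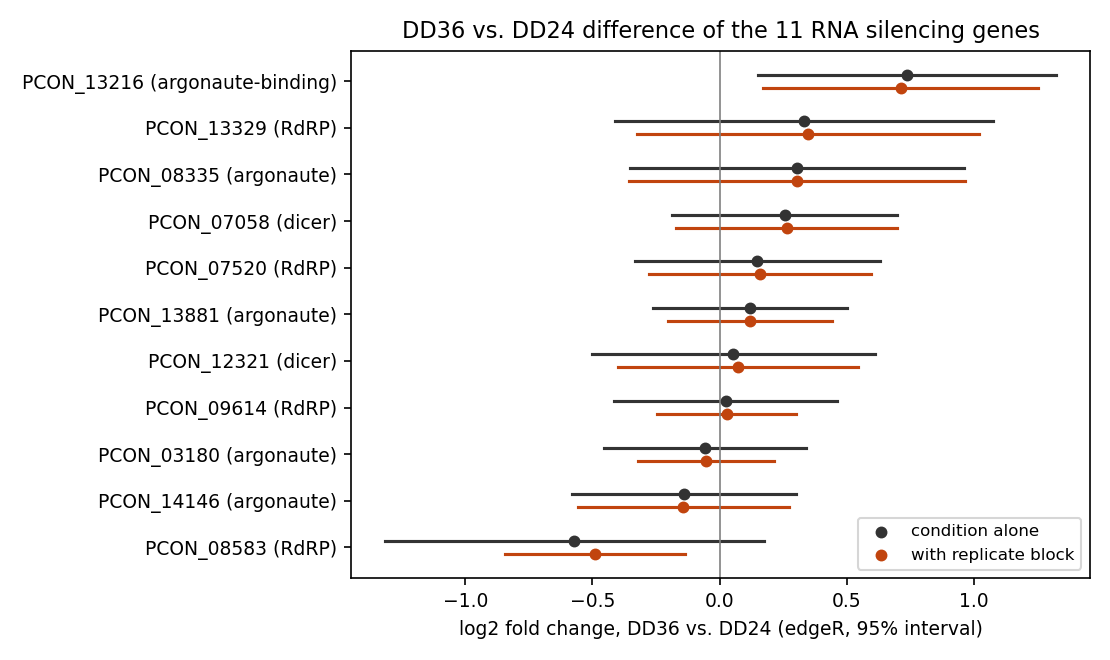
Log2 fold change of DD36 vs. DD24 (points) with 95% intervals (lines) for the 11 RNA silencing genes, from edgeR fits with the condition alone and with the replicate letter as a block. The interval of *PCON_13216* lies above 0 in both fits, that of *PCON_08583* below 0 only with the block (-0.84 to -0.14), and neither passed adjustment over all genes.

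A fitted log2 fold change above 0 was found for 8 of 11 members, against 49.7% of all genes tested, with a median of 0.12 against -0.0022 for all genes. Among the 10 members other than *PCON_08583* the median was 0.13, with 8 above 0. With total counts as the scaling, which moves the median of all genes to 0.23, it was 0.36 with 10 above 0, so that *PCON_03180* and *PCON_14146* change sign. When single libraries or pairs were left out, 5 to 9 were above 0, with medians of 0.047 to 0.23, the lowest count being that without pair b in the block fit.

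When the fit held the replicate letter as a block, 0 of 11 members passed at an adjusted p under 0.05 in edgeR, against 1.30% of all genes. At an unadjusted p under 0.05 it was 2 members, *PCON_08583* and *PCON_13216*, against 11.6% of all genes. The log2 fold change of *PCON_08583* was then -0.49 (standard error 0.17, unadjusted p = 0.00939, adjusted p = 0.231 from edgeR), and that of *PCON_13216* 0.71 (standard error 0.26, unadjusted p = 0.0130, adjusted p = 0.265 from edgeR). For *PCON_03180* and *PCON_09614* the block narrowed the intervals to -0.32 to 0.21 and -0.24 to 0.30.

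Likeness to *PCON_08583* was measured as the root mean square difference of centered log2 CPM over the 6 libraries, as a description only. Closest of 5465 genes were *PCON_03482* (similar to a PDZ domain protein, 0.12), *PCON_08093* and *PCON_12861* (both similar to hypothetical proteins of *Tuber melanosporum*, 0.12 and 0.13), *PCON_08692* (similar to the sphingolipid-responsive protein LSP1, 0.14) and *PCON_09063* (of unknown function, 0.15). The median of all genes was 0.53. The 5 genes were picked for this closeness, so that a shared order of libraries follows from the choice. In all 5 genes DD24 replicate a was highest. DD36 replicate a was next as in *PCON_08583* except for *PCON_08692*, where DD24 replicate b was next. All but *PCON_09063* stood between 9.18 and 61.4 CPM, and counting error at such levels was not taken into account. *PCON_09614* was at rank 432 with 0.36, closest within the family, and *PCON_13216* at rank 4839 with 0.75.

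Genes around the pathway were taken by words in the product from 5 further lists, and no member of any list had an adjusted p under 0.05 in edgeR, with or without the block. Unadjusted, 0 genes were under 0.05 in the lists of silencing partners, heterochromatin, transposons and mRNA decay, and 3 of 24 in that of DNA-dependent RNA polymerases, against 6.99% of all genes. By words for partners of silencing 5 models were found, of which 3 had enough counts, and their median log2 fold change was -0.16. *PCON_10373*, similar to a small RNA methyltransferase, had 22, 26 and 29 counts in libraries a, b and c of DD24 and 17, 28 and 37 in DD36. *PCON_13798* and *PCON_02283*, similar to subunits of the single-strand DNA-binding protein RPA, stood at 0.27 (standard error 0.25) and -0.16 (standard error 0.28) on the log2 scale.

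Of 19 models for heterochromatin and DNA or histone methylation 12 were tested, with a median log2 fold change of -0.09. *PCON_03205*, *PCON_07278* and *PCON_10395*, all similar to histone methyltransferases, had the smallest p of this list, at -0.32, 0.39 and 0.25 (adjusted p = 0.756, 0.801 and 0.846 from edgeR). The words matched histone methyltransferases of any site, such as H3 lysine 36 (*PCON_03205*), lysine 4 (*PCON_06556*) and lysine 79 (*PCON_10338*). Also in this list, and named here for their known partners in fission yeast after values were seen, were *PCON_10781*, similar to the helicase Hrr1 that works with Rdp1, and *PCON_09099*, similar to a histone H3 lysine-9 methyltransferase. *PCON_10781* had 78.8, 75.2 and 99.4 CPM in DD24 and 119, 91.0 and 83.5 in DD36, and *PCON_09099* had 6, 7 and 14 counts in DD24 and 10, 12 and 9 in DD36. Both overlapped between the time points.

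Transposons are known targets of RNA silencing in fungi. Of 21 models matched by words for transposons and viruses, 9 had no count in any library and 3 passed the filter. Over all 13369 models, 2907 had no count and 5466 passed. Whether silencing had a part in the low counts of this list was not tested. Of the 3 tested here, *PCON_09074*, similar to a retrovirus-related polyprotein, had 42, 89 and 75 counts in libraries a, b and c of DD24 and 95, 83 and 75 in DD36. The other tested models of this list, *PCON_02388* and *PCON_10221*, are similar to a tetracycline resistance protein and a retrovirus receptor, with log2 fold changes of -0.54 (standard error 0.29) and 0.23 (standard error 0.23).

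Of 22 models matched by words for mRNA decay 15 were tested, with a median log2 fold change of 0.03, among them *PCON_11667*, which is similar to a mitochondrial transferase and not to a decay factor. *PCON_06962* (the scavenger decapping enzyme), *PCON_04048* (the exosome nuclease rrp6) and *PCON_01724* (the exosome component rrp40) had the smallest p of this list and differed by -0.46, 0.48 and 0.56 on the log2 scale (standard errors 0.28, 0.32 and 0.39). The list for polymerases that read DNA was matched by words and also holds the phosphatases *PCON_01863*, *PCON_02995* and *PCON_09950*, which act on RNA polymerase II. It gave 24 tested models of 34, with a median log2 fold change of 0.19 against -0.0022 for all genes and 18 above 0, where 49.7% of all genes were. *PCON_13271* (the subunit RPAC1), *PCON_06943* (the mitochondrial polymerase) and *PCON_07110* (the subunit RPABC5) led this list at 1.02, 0.49 and 0.96 (adjusted p = 0.585, 0.624 and 0.650 from edgeR).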

How the data were processed

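RNA of 3 libraries per time point was sequenced by the study. Reads were trimmed and mapped to genome version v01_2 by the authors, who deposited raw read counts per predicted gene. The submitters' processing notes name CASAVA 1.8.2 and DESeq. The aligner, the counter, strand use and the handling of multiple matches were not given in the sources used here. Further columns of the authors' own comparisons (ratios, base means and p-values) were not used. All 6 count columns were matched to samples by title, and 0 were left out.

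The test was run on counts as deposited, with edgeR 4.0.16 in R 4.3.3 (filterByExpr, TMM, robust quasi-likelihood fit on the condition, Benjamini-Hochberg adjustment over all 5466 genes, threshold 0.05). Intervals of log2 fold changes are 95%. Chi-square values per degree of freedom between libraries of a time point were 3.36 to 14.1, so none was a copy. Deviations from the group means correlated at 0.223, 0.273 and 0.316 between libraries of the same letter, above the 0.1 that was set as the minimum for pairs. Labels do not say what a letter shares. The fit was tested on simulated counts.

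Alternatives were RLE and total-count scaling, *PCON_08583* and the phage models left out of totals, other filters (none beyond 1 count, or 10 in every library), the block, each library or pair left out, DESeq2 1.42.0 and voom in limma 3.58.1. The 11 members are all named. Other genes are direct neighbors, the 5 closest in profile, and the 3 with the smallest p of a related list. *PCON_04930*, *PCON_10781*, *PCON_09099* and the list members named for their annotation alone were added after values were seen. Members and lists were chosen with earlier results of these data known.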

Additional observations from a re-analysis of the deposited data

How the results depend on the processing

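Counts of genes called rested on the fit. Over all genes edgeR called 0 higher and 0 lower, 2 and 51 without the filter, 5 and 66 with the replicate block, 2 and 66 with the block and *PCON_08583* and the phage models left out of totals, and DESeq2 called 0 and 27. Leaving out libraries or pairs gave 0 to 41 higher and 0 to 150 lower (20 lower without DD24 replicate c, and in block fits 41 and 150 without pair a, 0 and 2 without pair b and 27 and 120 without pair c). Members called were 0 under each alternative except the block fit without pair a, which called 1, *PCON_08583* (log2 fold change -0.30, adjusted p = 4.03e-10 from edgeR). Among the 5788 genes tested in that fit, 41 were called higher and 150 lower. The call of *PCON_08583* rests on pairs b and c alone, whose differences of -0.29 and -0.29 on the log2 scale lay close together. A spread taken from so few pairs is uncertain, so that no weight is put on this p. The log2 fold change of *PCON_08583* ranged from -0.78 to -0.11 when libraries or pairs were left out, and stayed below 0 under all 18 alternatives. DESeq2 gave adjusted p only for *PCON_03180*, *PCON_08583* and *PCON_09614* among the members.

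Sign changes were seen in 5 members with values near 0. Total-count scaling gave 0.18 for *PCON_03180* and 0.092 for *PCON_14146*. Leaving out libraries or pairs gave -0.19 to 0.082 for *PCON_03180*, -0.12 to 0.20 for *PCON_09614*, -0.20 to 0.30 for *PCON_12321* and -0.0024 to 0.25 for *PCON_13881*. The cause was not tested. *PCON_13216* stayed between 0.44 and 0.96. With *PCON_08583* and the phage models left out of totals, levels per kb were higher for all 11 members in the same order (132 became 229 for *PCON_03180*), and per kb of coding sequence *PCON_14146* stood at 22.1 in place of 14.5.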
